A study of Mus musculus with 12 samples.

Results

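Interferon regulatory factors (IRFs) and signal transducers and activators of transcription (STATs) are the transcription factors that turn interferon and cytokine signals into gene expression. The genes followed here are Irf1, Irf2, Irf3, Irf5, Irf7, Irf8, Irf9, Stat2 and Stat3, taken from the expression table by gene symbol, 9 of its 22013 genes. All 9 passed the filter on low counts. Receptors for type I interferon activate the Janus kinases, which phosphorylate STAT proteins. STAT2 and IRF9 are subunits of ISGF3, the complex that binds interferon-stimulated response elements (ISREs). IRF3 and IRF7 lie upstream and switch on the interferon genes themselves once nucleic acid sensors are engaged, and Irf7 is in turn induced by ISGF3. IRF1 serves the response to interferon gamma, IRF2 competes with IRF1 for its sites, IRF5 and IRF8 act mainly in myeloid cells, and STAT3 serves interleukin-6 and interleukin-10.

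The series profiled mRNA of mouse aortic cells labelled as endothelial, in 12 libraries. All animals received angiotensin II (Ang II) by infusion, which raises blood pressure and inflames the vessel wall. Wild-type mice and Glra2-/- mice, a global knockout of the glycine receptor α2 subunit, were each injected intraperitoneally with saline or glycine, giving 3 libraries in each of 4 groups: wild-type saline 1 to 3, wild-type glycine 4 to 6, knockout saline 1 to 3 and knockout glycine 4 to 6. Glycine was labelled as 800 mg/kg per day, except for knockout glycine 5, which carries 80 mg/kg per day. The age, sex and strain of the mice are not stated in the labels, and they do not tie the libraries of one group to different animals, so p-values measure the spread between libraries, which may be technical.

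Libraries held 14.5 M to 24.3 M estimated counts, of which mitochondrially encoded genes took 50 to 64.7% in the wild type under saline and 30.6 to 38.5% under glycine, and 34.4 to 50.4% and 26.9 to 36.2% in the knockout. Without mitochondrial and haemoglobin genes the same number of the 9 genes was called in each comparison. Glra2 (ENSMUSG00000018589) had 0 counts in all 12 libraries, wild type included, so its level checks none of the genotype labels. Markers fixed for endothelial cells were detected (12 of 12 past the filter), yet their summed level of 316 to 965 CPM (estimated counts scaled to a common library total) was below the 4180 to 21600 CPM of 13 macrophage and monocyte markers and the 7060 to 23300 CPM of 8 fibroblast markers in the same libraries. The libraries are therefore called by their group labels and not as pure endothelium. In bulk RNA of this kind, fewer cells of a type and less RNA per cell cannot be told apart.

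The calls fell on 4 of the 9 genes. In the comparison of knockout with wild type under saline, Irf5, Irf7, Irf8 and Stat3 rose (4 of 9 higher, none lower), where 11.3% of all 13928 genes tested were called in either direction, 6.04% higher. Under glycine, Irf7 was the single gene of the 9 to pass the test between genotypes, against a background of 2.56%, 1.5% higher. Glycine against saline in the knockout called Irf7 alone, higher, against a background of 1.13%, 0.926% higher. In the wild type the same comparison called none, against 1.39%, 0.991% higher. These comparisons share groups of libraries, so they do not count as independent evidence for one another. Calls are at an adjusted p below 0.05 from the edgeR quasi-likelihood test, with Benjamini-Hochberg adjustment over all 13928 genes.

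**Figure D1:**
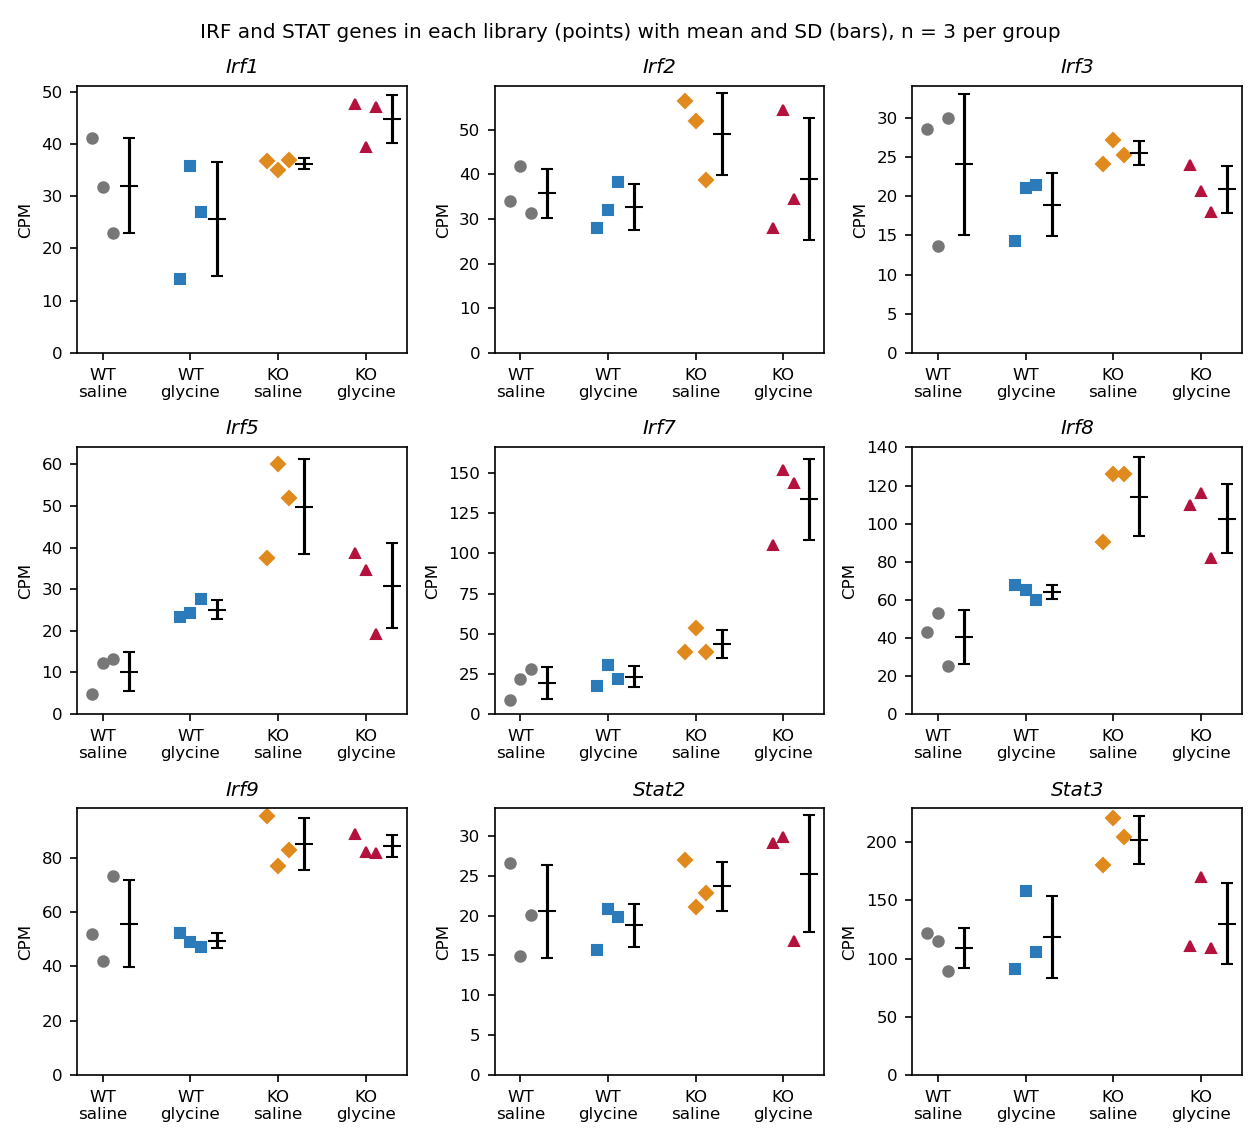
CPM of the 9 genes in each library (points; grey circles wild-type saline, blue squares wild-type glycine, orange diamonds knockout saline, red triangles knockout glycine), with the mean and SD of 3 libraries beside them (bars). Irf7 in the 3 knockout glycine libraries lies between 105 and 152 CPM, above every other library, while Irf5, Irf8 and Stat3 have their highest means in knockout saline.

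Irf7 (ENSMUSG00000025498), the interferon-inducible factor that amplifies type I interferon production, was highest in the knockout mice given glycine. Its level was 8.5, 21.7 and 28.1 CPM in wild-type saline 1 to 3 and 17.4, 30.7 and 22 CPM in wild-type glycine 4 to 6. In knockout saline 1 to 3 it was 38.4, 53.4 and 38.6 CPM, and in knockout glycine 4 to 6 it was 105, 152 and 144 CPM. Both wild-type groups overlapped each other, every knockout saline library lay above every wild-type library, and every knockout glycine library lay above all the rest. The group means thus ordered as wild-type saline (19.4 ± 9.98 CPM, SD, n = 3), wild-type glycine (23.3 ± 6.78), knockout saline (43.5 ± 8.62) and knockout glycine (133 ± 25.4), and only the first pair of neighbours differed by less than their spread.

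Between genotypes under glycine the log2 fold change of Irf7 was 2.51 ± 0.357 (SE), a 5.71-fold difference, with adjusted p = 0.00153 by edgeR. That call was kept in each of 6 fits leaving out one of the compared libraries, where the highest adjusted p was 0.0123. Glycine against saline in the knockout gave 1.62 ± 0.345, a 3.07-fold rise (edgeR adjusted p = 0.0344). This second call is borderline: it was lost in 5 of 6 fits with a library of the compared groups left out, with adjusted p = 0.118, 0.0887 and 0.153 without knockout saline 1, 2 or 3 and 0.138 and 0.134 without knockout glycine 5 or 6, although the log2 fold change stayed between 1.51 and 1.79. The library labelled with the lower dose, knockout glycine 5, had the highest Irf7 level, and without it the genotype difference under glycine was 2.41 with an adjusted p of 0.00902 by edgeR.

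Under saline, Irf7 was 2.24-fold higher in the knockout (log2 1.16 ± 0.347, edgeR adjusted p = 0.042). This call passed in 1 of 6 fits with a compared library left out, and was lost without wild-type saline 1 or 2 (adjusted p = 0.101 and 0.0593) and without knockout saline 1, 2 or 3 (0.0539, 0.161 and 0.0709). Leaving out a library of the other groups, which changes the shared estimate of spread and the adjustment, also ended it in 4 of 6 fits, for wild-type glycine 6 and knockout glycine 4, 5 or 6 (adjusted p 0.0539, 0.0507, 0.0575 and 0.0587). It was lost too with the compared groups alone in the model (0.0904) and in FPKM without a filter (limma adjusted p = 0.0514). In the wild type, glycine left Irf7 at 1.2-fold (log2 0.27, 95% interval -0.47 to 1). The difference between the 2 glycine responses, tested as an interaction, was 1.35 ± 0.484 on the log2 scale with an adjusted p of 0.224 by edgeR. A genotype-dependent response of Irf7 thus did not pass the test. It passed in 1 of 12 fits with a library left out, without wild-type saline 1 (edgeR adjusted p = 0.047), and in 0 of 9 other settings. The highest edgeR adjusted p with a library left out was 0.436.

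The promoter window of Irf7 is shown because Irf7 carries the largest difference among the 9 genes. It spans 250 bases before to 50 after the RefSeq start site, on the minus strand of GRCm38.p6 at chr7:141266375-141266674, and reads 5′ to 3′. It held no match to the 2 motifs searched, so no bases are in capitals.
Irf7: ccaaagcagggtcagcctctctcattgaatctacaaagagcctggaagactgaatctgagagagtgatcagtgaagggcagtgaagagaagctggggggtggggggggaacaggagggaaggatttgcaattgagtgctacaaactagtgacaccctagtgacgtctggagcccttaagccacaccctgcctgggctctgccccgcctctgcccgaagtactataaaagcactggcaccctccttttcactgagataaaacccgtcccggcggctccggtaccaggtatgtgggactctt
The motifs were the ISRE, GAAANNGAAA on one strand and TTTCNNTTTC on the other, and the STAT-binding gamma-activated site (GAS), TTCNNNGAA, which reads the same on both strands. Among 32851 RefSeq windows of 300 bases, 3.44% held the ISRE letters and 8.3% the GAS letters. The absence of these letters says nothing about binding outside the window or at other letters. No Irf3, Irf5, Irf9 or Stat3 window held a match either.

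Levels of cell-type markers were set beside Irf7, and not all of them followed its order of groups. The summed level of 11 T and NK cell markers was 220 to 246 CPM in knockout glycine and 36.2 to 95.1 CPM in the other 9 libraries. By edgeR, 3 of the 11 were called higher with glycine in the knockout and 2 between genotypes under glycine, with 0 lower in either. Klrb1c, Nkg7 and Cd3e in knockout glycine overlapped wild-type libraries. For 6 plasmacytoid dendritic cell markers, a cell type that keeps Irf7 high at rest, the summed level was 366 to 414 CPM in knockout glycine. It was 333 to 403 in wild-type saline, 225 to 310 in wild-type glycine and 218 to 296 in knockout saline. Of the 6, Tcf4 had the highest level in each group and averaged 281, 170, 161 and 146 CPM in wild-type saline, wild-type glycine, knockout saline and knockout glycine, Cox6a2 47.8, 50.4, 30.7 and 144, Bst2 47.8, 42.4, 47.9 and 84.2, Siglech 0.359, 3.82, 6.35 and 6.81, Ccr9 0.031, 0.0991, 0.0229 and 5.53, and Klk1 0, 0.565, 0.331 and 2.17. By edgeR, Bst2 was the 1 of 6 called higher between genotypes under glycine, Cox6a2 the 1 called higher with glycine in the knockout, and Tcf4 was called lower in the knockout under saline. Bst2 is also on the list of ISGF3 targets used below. The part of these cells in the Irf7 difference was not tested. Under saline, where Irf7 was called higher in the knockout, all 13 macrophage and monocyte markers were called higher too, and their summed level averaged 18200 CPM in knockout saline against 5170 CPM in the wild type under saline and 9560 CPM in the wild type under glycine. In knockout glycine, the group with the highest Irf7, that sum was 10700 CPM, below knockout saline. Lyz2 had the most counts of the 13 in every group, so it weighs most in the sum. The monocyte marker Ly6c2 rose instead, from 12.8, 27.2 and 19.1 CPM in knockout saline to 59.9, 68.7 and 77.5 CPM in knockout glycine. By edgeR, 1 of the 13 was called higher and 1 lower with glycine in the knockout (median log2 difference -0.51). Set against the geometric mean of those markers, Irf7 stood at 38.5 ± 7.94% in knockout glycine and at 10.1 ± 1.27% in knockout saline, 9.34 ± 2.62% in wild-type glycine and 15.5 ± 7.96% in wild-type saline (SD, n = 3 each).

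**Figure D2:**
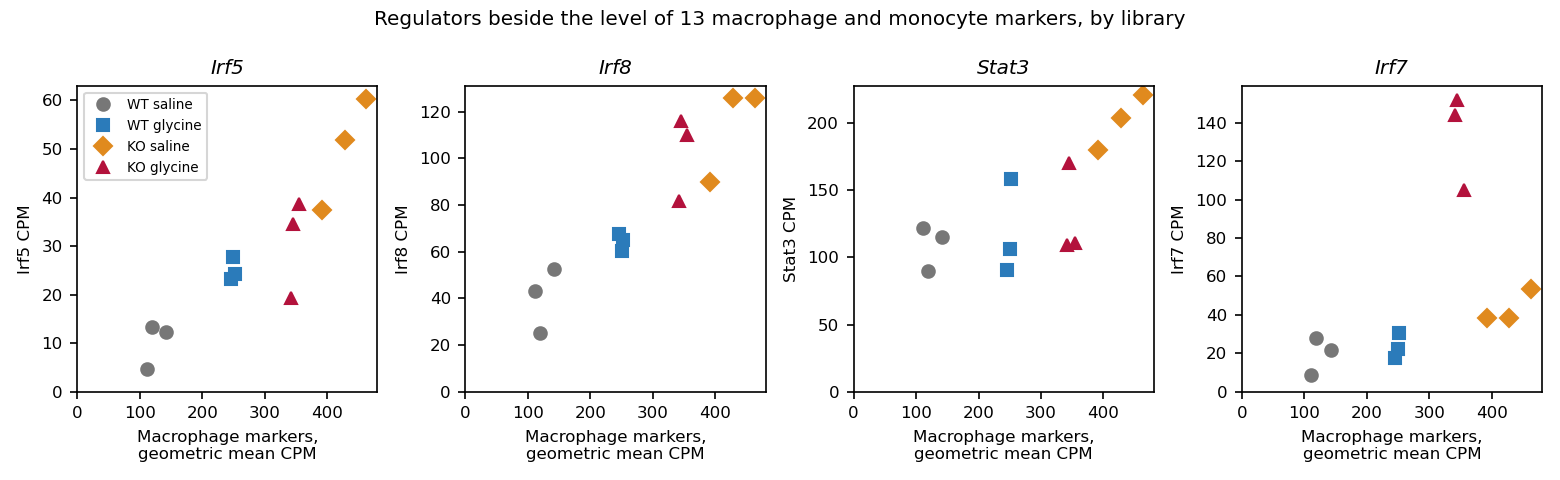
CPM of Irf5, Irf8, Stat3 and Irf7 (vertical axes) against the geometric mean CPM of 13 macrophage and monocyte markers (horizontal axes), 1 point per library, shaped and coloured by group. Irf5 and Irf8 climb with the markers from wild-type saline to knockout saline, whereas the 3 knockout glycine points for Irf7 stand at 105 to 152 CPM beside marker levels below those of knockout saline.

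Irf8 (ENSMUSG00000041515), needed for monocyte and dendritic cell development, was about as high in both knockout groups. It was 43.1, 52.8 and 25.1 CPM in wild-type saline 1 to 3 and 67.5, 65.1 and 60.1 CPM in wild-type glycine 4 to 6. It was 90.1, 126 and 126 CPM in knockout saline 1 to 3 and 110, 116 and 81.9 CPM in knockout glycine 4 to 6. No wild-type library reached the knockout range, the 2 wild-type groups did not overlap, and the 2 knockout groups overlapped. Under saline the knockout was 2.83-fold higher (log2 1.5 ± 0.246, edgeR adjusted p = 0.000915), a call kept in every fit tried. Under glycine the difference was 1.6-fold (log2 0.67 ± 0.241) with an adjusted p of 0.195 by edgeR, and glycine in the wild type gave 0.67 ± 0.243 with 0.247.

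Irf5 (ENSMUSG00000029771), which drives inflammatory cytokine genes in macrophages downstream of Toll-like receptors, had the largest genotype difference under saline. Wild-type saline 1 to 3 had 4.76, 12.3 and 13.3 CPM, and wild-type glycine 4 to 6 had 23.3, 24.3 and 27.7 CPM. Knockout saline 1 to 3 had 37.5, 60.2 and 51.9 CPM, and knockout glycine 4 to 6 had 38.7, 34.5 and 19.3 CPM. Wild-type saline lay below all other libraries, and knockout glycine overlapped both wild-type glycine and knockout saline. Between genotypes under saline the log2 fold change was 2.31 ± 0.371 (4.95-fold, edgeR adjusted p = 0.000786), and the call was kept in every fit tried. Under glycine the genotypes differed by 0.30 ± 0.351 on the log2 scale (95% interval -0.45 to 1.05).

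The log2 differences of Irf5 between glycine and saline had opposite signs in the 2 genotypes, and neither passed the test: 1.32 ± 0.362 in the wild type (edgeR adjusted p = 0.107) and -0.69 ± 0.351 in the knockout (0.501). The interaction was -2.01 ± 0.504 on the log2 scale, with an adjusted p of 0.0711 by edgeR. It fell below 0.05 in 3 of 9 other settings: without a filter on low counts (0.0473), in DESeq2 (0.00963) and in the FPKM fit with a pseudocount of 1 (0.0348). It passed in 0 of 12 fits with a library left out, where the edgeR adjusted p ran from 0.0549 to 0.19. In GENCODE vM21, 14.1% of the exonic bases of Irf5 overlap Tnpo3, a nuclear import receptor gene on the opposite strand, and whether counting used strand is not given in the sources used here. Reads there cannot be assigned for certain. Tnpo3 itself was at 40.3 ± 15.6 CPM in wild-type saline and 51.8 ± 8.58 CPM in knockout saline, a log2 difference of 0.36 ± 0.286 (adjusted p = 0.52 by edgeR).

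The levels of macrophage markers moved beside Irf5 and Irf8. All 13 macrophage and monocyte markers were called higher in knockout than wild type under saline, 8 rose with glycine in the wild type, and 1 of 13 was higher between genotypes under glycine. Their summed CPM ran from 4180 to 6340 in wild-type saline, 9360 to 9800 in wild-type glycine, 15900 to 21600 in knockout saline and 10300 to 11400 in knockout glycine, so no group overlapped another. Per unit of their geometric mean, Irf5 ranged over 8.04 ± 3.49%, 10.1 ± 0.896%, 11.6 ± 1.78% and 8.84 ± 2.81% in those 4 groups in that order, and Irf8 over 32.4 ± 9.86%, 25.8 ± 1.7%, 26.6 ± 3.3% and 29.4 ± 4.97%. Relative to the markers, the ranges of all 4 groups overlapped for both genes. Whether the marker levels account for the Irf5 and Irf8 differences was not tested.

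Irf8 and 3 other genes had a motif match, shown as a description of what these windows hold, with the matched letters in capitals and up to 10 neighbouring bases. Irf1 and Stat2 are shown for the interferon response, Irf2 for its ISRE and Irf8 because its level differed between genotypes. All 4 lie on the plus strand of GRCm38.p6. The Irf1 match is a GAS whose first base is 90 bases before the start site, at chr11:53769914-53769942. Stat2 has an ISRE 222 bases before its start site, at chr10:128270266-128270295. Irf2 has an ISRE 241 bases before its start site, at chr8:46739495-46739523, where the trailing capitals belong to a nearby GAS.
Irf1: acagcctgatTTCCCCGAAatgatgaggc
Stat2: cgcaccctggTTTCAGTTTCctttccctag
Irf2: tggggaagtGAAAATGAAAttgacttTTC
The Irf8 window at chr8:120736108-120736407 holds 2 GAS matches, at 171 and 153 bases before the start site.
Irf8: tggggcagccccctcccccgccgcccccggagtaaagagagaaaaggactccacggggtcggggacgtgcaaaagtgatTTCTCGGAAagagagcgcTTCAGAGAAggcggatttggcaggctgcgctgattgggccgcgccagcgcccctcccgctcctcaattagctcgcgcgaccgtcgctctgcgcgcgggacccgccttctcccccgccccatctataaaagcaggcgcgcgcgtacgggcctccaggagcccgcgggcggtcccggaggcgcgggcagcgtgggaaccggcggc
Irf8 and Irf1 have a second RefSeq window each, with no match in either.

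Stat3 (ENSMUSG00000004040), the acute-phase and interleukin-6 family transducer, had the highest mean of the 9 genes per unit length in both wild-type groups. It led the next gene by less than its SD over 3 libraries in each. Wild-type saline 1 to 3 stood at 122, 115 and 89.7 CPM, and wild-type glycine 4 to 6 at 90.8, 158 and 106 CPM. Knockout saline 1 to 3 stood at 180, 221 and 204 CPM, and knockout glycine 4 to 6 at 111, 170 and 109 CPM. Knockout saline stood above every other library, and the other 3 groups overlapped. Under saline the knockout was 1.85-fold higher (log2 0.89 ± 0.228, edgeR adjusted p = 0.0193). The call was lost without wild-type saline 3 (adjusted p = 0.0728) and without knockout saline 2 or 3 (0.0777 and 0.0569), and in FPKM without a filter (limma adjusted p = 0.0586). In the same comparison all 13 macrophage and 4 of 8 neutrophil markers were called higher and 7 of 8 fibroblast markers lower. Set against the geometric mean of the macrophage markers, Stat3 stood at 88.8 ± 18.6% in wild-type saline and 47.1 ± 1.01% in knockout saline (SD, n = 3). The part of these cells in the Stat3 difference was not tested. The Stat3 mean in the knockout was 202 ± 20.5 CPM under saline and 130 ± 34.8 CPM under glycine, a log2 difference of -0.63 ± 0.227 that did not pass (edgeR adjusted p = 0.265), and between genotypes under glycine Stat3 differed by 0.14 ± 0.226.

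Irf9 (ENSMUSG00000002325), the DNA-binding subunit of ISGF3, lay close to the threshold in both genotype comparisons. Values were 52, 41.9 and 73.3 CPM for wild-type saline 1 to 3 and 52.5, 48.9 and 47.3 CPM for wild-type glycine 4 to 6. They were 95.6, 77 and 82.8 CPM for knockout saline 1 to 3 and 88.9, 82.2 and 81.9 CPM for knockout glycine 4 to 6. Every knockout library lay above every wild-type library, and glycine left the group means close within each genotype. The log2 differences were 0.61 ± 0.196 under saline (edgeR adjusted p = 0.0608) and 0.77 ± 0.197 under glycine (0.0538). DESeq2 called both, with adjusted p = 0.0313 and 0.00823. Of 10 other settings tried, DESeq2 included, 4 called the saline difference and 3 the glycine difference. With a compared library left out, the saline difference passed in 1 of 6 fits and the glycine difference in 0 of 6. The highest edgeR adjusted p in those fits was 0.173 and 0.192. In GENCODE vM21 a small part of the Irf9 exons, 2.28%, overlaps Rnf31 on the same strand.

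Stat2 (ENSMUSG00000040033), the other ISGF3 subunit among the 9, lay within 14.9 to 29.9 CPM in all 12 libraries. Wild-type means were 20.5 ± 5.9 CPM under saline and 18.8 ± 2.67 CPM under glycine, and knockout means 23.7 ± 3.02 and 25.2 ± 7.37 CPM (SD, n = 3). The groups overlapped in every pairwise comparison, and no log2 difference was larger than 0.43 ± 0.295 (knockout against wild type under glycine, adjusted p = 0.609 by edgeR, 95% interval -0.20 to 1.06).

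Irf3 (ENSMUSG00000003184), which is present at rest and activated by phosphorylation, varied more between the wild-type saline libraries than between the group means. It ran from 13.7 to 30 CPM in wild-type saline, 14.3 to 21.4 in wild-type glycine, 24.1 to 27.1 in knockout saline and 18 to 24 in knockout glycine. Its largest log2 difference was -0.35 ± 0.302, for glycine in the wild type (edgeR adjusted p = 0.766). In the knockout, Irf3 was lower in every glycine library than in every saline library, by -0.29 ± 0.301 on the log2 scale (edgeR adjusted p = 0.862). Irf2 (ENSMUSG00000031627) ran from 31.4 to 41.8 CPM in wild-type saline, 28 to 38.2 in wild-type glycine, 38.8 to 56.3 in knockout saline and 28 to 54.3 in knockout glycine, and its largest difference was 0.46 ± 0.259 (knockout against wild type under saline, edgeR adjusted p = 0.323).

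Irf1 (ENSMUSG00000018899), the interferon gamma and NF-kB responsive activator, was 41.1, 31.8 and 23 CPM in wild-type saline 1 to 3 and 14.2, 35.8 and 27 in wild-type glycine 4 to 6. Knockout saline 1 to 3 had 36.7, 35 and 36.9 CPM, and knockout glycine 4 to 6 had 47.6, 39.4 and 47.1 CPM. Knockout glycine lay above wild-type glycine and above knockout saline in every library, but it overlapped wild-type saline. The log2 difference between genotypes under glycine was 0.80 ± 0.297 with an adjusted p of 0.219 by edgeR.

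**Figure D3:**
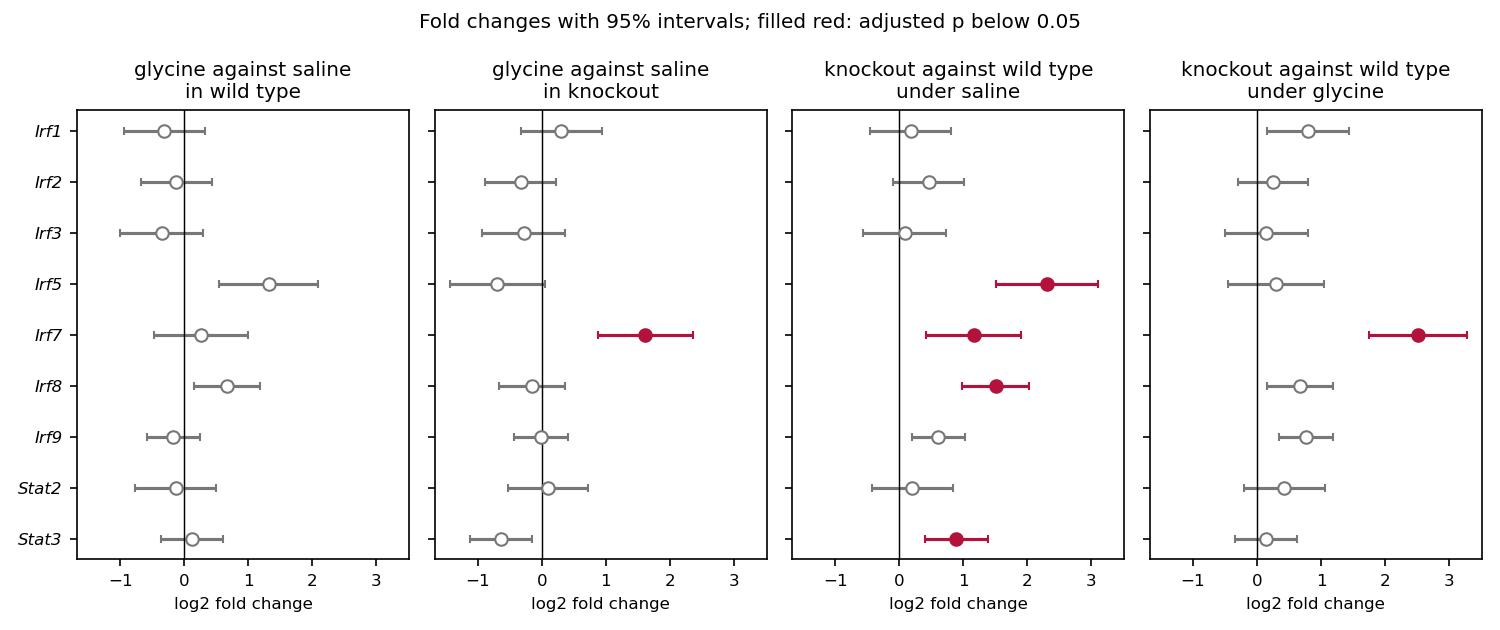
Log2 fold changes of the 9 genes (points) with 95% intervals (bars) in 4 pairwise comparisons from the edgeR fit, 1 panel each; filled red points have an adjusted p below 0.05. The 6 red points are Irf7 in 3 panels and Irf5, Irf8 and Stat3 under saline.

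Across the 9 genes the groups did not overlap for 2 in glycine against saline in the wild type, 4 in the knockout, 5 between genotypes under saline and 4 under glycine. Over all genes 15.7%, 21%, 29.9% and 21.7% did not overlap in the same 4 comparisons. All 9 log2 differences were positive in both genotype comparisons, with a median of 0.61 under saline and 0.43 under glycine, against medians of -0.02 and -0.01 over all genes. In the wild type the edgeR count of 0 for glycine stood beside 2 genes with unadjusted p below 0.05, Irf5 and Irf8, and DESeq2 called 1, Irf5. In the interaction, edgeR called 0 of 9, against 1.12% of all genes, beside 4 with unadjusted p below 0.05, and DESeq2 called 1.

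Levels per unit length, as the authors' FPKM values, put Stat2 or Irf5 lowest in every group. In wild-type saline the FPKM means ran from 3.83 ± 1.95 for Irf5 and 3.92 ± 1.69 for Stat2 to 20.8 ± 5.28 for Stat3, with Irf7 next above Stat2 at 8.36 ± 4.63. In knockout glycine Irf7 stood first at 82.9 ± 15.3 FPKM, ahead of Irf8 at 46.3 ± 9.21 and Irf9 at 41.2 ± 4.2, whose spreads overlap, and Stat2 stood last at 6.86 ± 2.37. In knockout saline Stat3 was first at 46.5 ± 10.8 FPKM and Irf8 next at 40.9 ± 11, within their spread. Irf7 thus stood below 6 of the other genes in wild-type saline and above all of them in knockout glycine.

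Target genes followed the group in which Irf7 was highest. Of 28 tested ISGF3 targets, 16 were higher in the knockout under glycine and none lower, with a median log2 difference of 1.22 against -0.01 over all genes. Glycine raised 8 of the 28 in the knockout (median 0.82) and none in the wild type by edgeR (median 0.01), where 5 had an unadjusted p below 0.05 and DESeq2 called 1. Ifit3, an antiviral IFIT protein gene, was at 223, 238 and 241 CPM in knockout glycine and 46.6 to 82.2 CPM in the other 9 libraries, a rise with glycine of 1.97 ± 0.213 in the knockout (edgeR adjusted p = 0.000799). Isg15, the ubiquitin-like interferon product, was at 58.2, 74.8 and 85 CPM in knockout glycine and 11.9 to 25.4 CPM elsewhere. Both sets lay wholly above the others. Ifit3 and Ifit3b are near-identical copies whose reads the authors' counting could split, so their separate values are uncertain.

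The count of 8 ISGF3 targets in the knockout glycine response was 5 without knockout saline 2 or 3, 12 without wild-type glycine 4, 13 with the compared groups alone in the model, 14 in DESeq2 and 15 or 16 in FPKM, and the count of 16 fell to 10 without wild-type glycine 5 or 6. Between genotypes under saline, 4 of the 28 were higher, led by the oligoadenylate synthetase gene family: Oasl1 rose by 6.03 ± 0.862 on the log2 scale (edgeR adjusted p = 0.000327), from 0, 1.3 and 0 CPM in wild-type saline to 17.1, 33.8 and 21.7 CPM in knockout saline. Because 2 of 3 wild-type saline libraries had no counts for Oasl1, that fold depends on the fit. Oas1a and Oas1g also rose, by 1.22 ± 0.178 and 1.52 ± 0.347.

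Of 30 interferon gamma and IRF1 targets, 14 were higher in the knockout under glycine and none lower. Between genotypes under saline, where Irf7 was called higher too, 5 of the 30 were higher and 4 lower (median log2 difference -0.05). Glycine raised 8 in the knockout, and in the wild type it raised 1 and lowered 3. Iigp1, an immunity-related GTPase gene, was 129, 116 and 154 CPM in wild-type saline and 44.5, 49 and 64.2 in wild-type glycine, then 50.6, 34.5 and 38.1 in knockout saline and 207, 212 and 166 in knockout glycine. Wild-type glycine and knockout saline were low for Iigp1, while wild-type saline and knockout glycine were high, an order that the group means of none of the 9 regulators shared. Iigp1 fell by 1.34 with glycine in the wild type and rose by 2.25 in the knockout (edgeR adjusted p = 0.00513 and 0.000278). The count of 14 fell to between 7 and 9 without wild-type glycine 5 or 6 or knockout glycine 4 or 5, and the count of 8 fell to 5 without knockout saline 3.

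**Figure D4:**
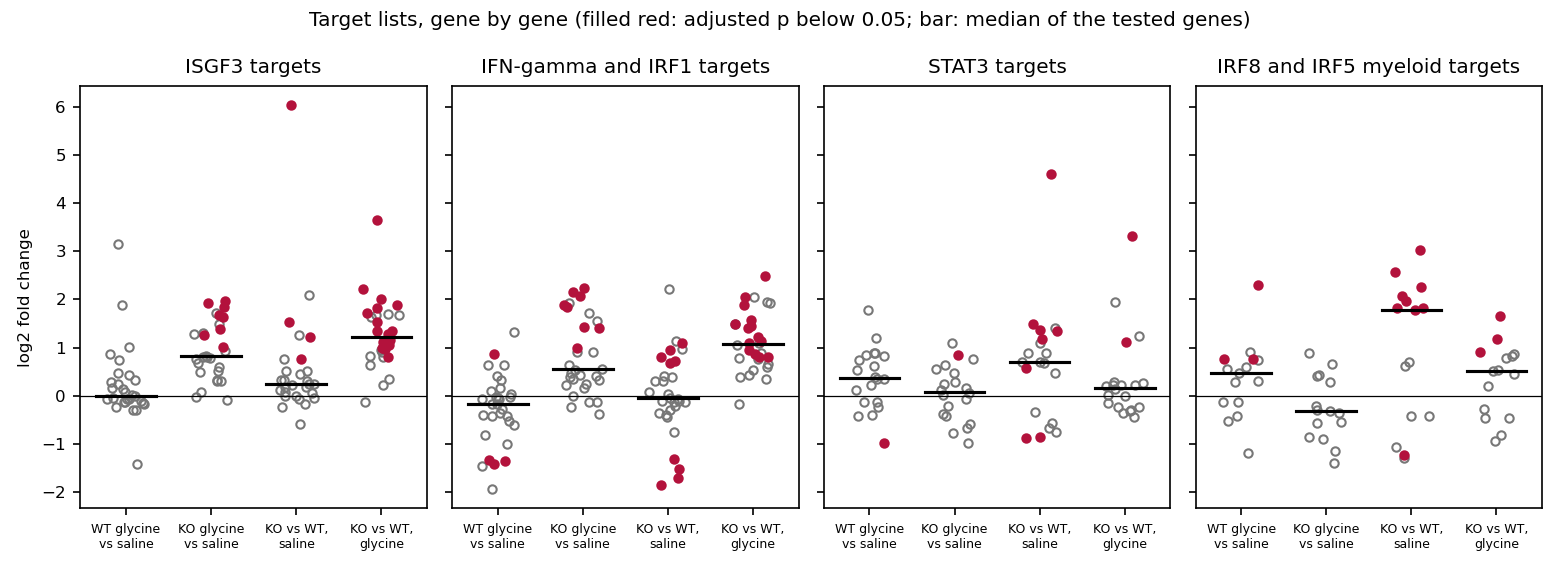
Log2 fold changes of the tested genes of 4 target lists (circles; filled red, adjusted p below 0.05) with the list median (bar), in 4 pairwise comparisons. ISGF3 and interferon gamma targets have their highest medians, 1.22 and 1.07, between genotypes under glycine, and the myeloid targets, 1.79, between genotypes under saline.

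For IRF8 and IRF5 myeloid targets the comparison of genotypes under saline stood out, with 8 of 15 higher and 1 lower, where Irf5 and Irf8 rose too. Ctss, a lysosomal protease gene, was higher by 2.26 ± 0.161 and Cybb, the phagocyte NADPH oxidase subunit gene, by 1.83 ± 0.195 on the log2 scale (edgeR adjusted p = 1.11e-06 and 3.43e-05). Klf4 was the 1 gene that fell, and is named after its value was seen. Under glycine 3 of 15 were higher between genotypes. Several of these targets, Cd68 among them, are also macrophage markers, so the list is not independent of the marker levels above.

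STAT3 targets were mixed in that comparison: 6 of 20 rose and 2 fell while Stat3 rose. The count of 6 was 2 without wild-type saline 1 or 3 or knockout saline 3, 3 without knockout saline 2, 9 in DESeq2 and 10 in FPKM with a pseudocount of 1. Saa3, an acute-phase protein gene, rose by 4.61 ± 0.697 and Hif1a by 1.19 ± 0.277, while Fgl2 fell by 0.88 and Osmr, the oncostatin M receptor gene, by 0.86 (log2, edgeR adjusted p = 0.000505, 0.011, 0.00331 and 0.013). Socs3, the classical STAT3-induced feedback inhibitor, was not called in any comparison (smallest edgeR adjusted p = 0.0774, between genotypes under saline).

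Of the genes that feed these factors, the interferon ligands were close to silent. Counts of Ifna1, Ifna2, Ifna4, Ifne, Ifnk, Ifnl2, Ifnl3 and Il21 were 0 in all 12 libraries, and Ifnb1 reached 13 counts over all libraries, at most 7 in any. Group means of Ifng were 0.158 to 1.13 CPM. Among 6 ligands tested, Osm and Il10 rose in the knockout under saline (log2 2.64 ± 0.43 and 2.46 ± 0.541, edgeR adjusted p = 0.000862 and 0.00753). Of 13 receptors tested 4 rose and 2 fell there, with the type I interferon receptor subunit Ifnar1 higher by 1.63 ± 0.284 and the interleukin-6 receptor Il6ra by 1.67 ± 0.319 (edgeR adjusted p = 0.00147 and 0.00286). Neither list had an edgeR call between genotypes under glycine, where 0 ligands and 4 receptors had an unadjusted p below 0.05. Under saline, all 13 macrophage and monocyte markers were called higher in the knockout as well. The part of these cells in the ligand, receptor, sensor and adaptor differences was not tested.

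The Janus kinases, which link those receptors to the STATs, gave no edgeR call in any comparison, and at most 1 of the 4 had an unadjusted p below 0.05 in each. Jak1 averaged 161, 197, 237 and 183 CPM in wild-type saline, wild-type glycine, knockout saline and knockout glycine, Jak2 29.6, 31.9, 24.3 and 31.1, Jak3 2.76, 2.37, 5.58 and 3.53, and Tyk2 11.1, 4.07, 10.8 and 6.91. The smallest adjusted p of the 4 was 0.0864, for Jak1 between genotypes under saline. Of 20 sensors and adaptors tested, 6 rose in the knockout under saline and none fell, among them Tlr7, an RNA sensor upstream of IRF7 and IRF5 (1.99 ± 0.328), Irak4, a Toll-like receptor kinase (2.94 ± 0.278), and Ikbke, an IRF3 and IRF7 kinase (2.79 ± 0.533). Irak4 and the RIG-I-like receptor Dhx58 were the 2 higher under glycine.

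Of 15 negative regulators, Usp18, an ISG15 protease and ISGF3-induced brake on the interferon receptor, was the single one to rise with glycine in the knockout (1.53 ± 0.224, edgeR adjusted p = 0.00386) and between genotypes under glycine (1.28 ± 0.222, edgeR adjusted p = 0.0059). Under saline the phosphatase genes Ptpn1 and Ptpn6 rose, and Rnf125 and Socs2 fell. Of 7 other family genes tested, edgeR called 1 higher between genotypes under saline and 1 higher under glycine, and none lower. Among these genes, Irf4, Stat4, Stat5a, Stat5b and Stat6 gave no edgeR call in any comparison. Their smallest adjusted p by edgeR was 0.0972, for Stat6 with glycine in the knockout (log2 -1.05 ± 0.282). Of 3 IRF2-binding proteins, Irf2bpl fell in the knockout under saline, from 14.1 to 4.34 CPM (log2 -1.70 ± 0.414, edgeR adjusted p = 0.0142).

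**Figure D5:**
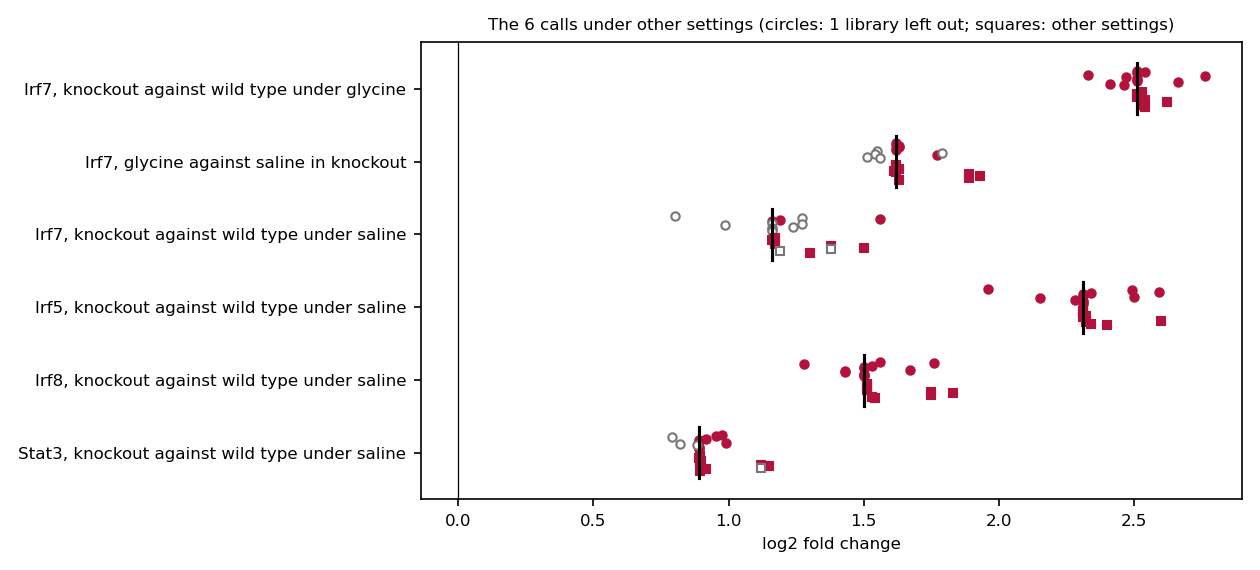
Log2 fold change of each of the 6 called differences under the alternatives tried (circles, 1 library left out; squares, other settings; filled red, adjusted p below 0.05; black bar, the value as reported). Irf7 under glycine, Irf5 and Irf8 stay red throughout, while Irf7 with glycine in the knockout, Irf7 under saline and Stat3 under saline have open points.

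Likeness to other genes was measured as the mean absolute difference, over the 12 libraries, between log2 CPM values centred on each gene's own mean. Closest to Irf7 was Zbp1, a nucleic acid sensor gene, at 0.316, then AA467197 at 0.359 and Mybphl at 0.396. Irf5 lay closest to Cd33, a myeloid surface receptor gene (0.248), then to Dennd1a (0.264) and Ap1b1 (0.274). Irf8 lay closest to Evi2b (0.177), Ptprc, the pan-leukocyte CD45 gene (0.178), and Prdx6 (0.188). With neighbours limited to genes varying at least as much, the closest were Lfng for Irf5 (0.379) and Pmaip1 for Irf8 (0.191). Irf9 lay closest to Hmox2 (0.132) and Stat3 to Taf13 (0.146). The closest genes were Cox19 for Irf1 (0.153), 9930111J21Rik2 for Irf2 (0.163), Paics for Irf3 (0.136) and Nubp2 for Stat2 (0.137). Among genes varying at least as much as Irf9, Ifngr1, the interferon gamma receptor subunit gene, came next after Hmox2 at 0.155. Among genes varying at least as much as Irf7, which leaves out Zbp1, the closest were Klk1b27 (0.416), Klra2 (0.426) and Plac8 (0.445).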

How the data were processed

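RNA-seq libraries were prepared from bead-enriched mRNA, per the labels' protocols. The authors deposited 1 table of 22013 genes and 12 libraries, giving each gene's estimated count and FPKM. The submitters' processing notes name RSEM, Bowtie2 2.2.8, HISAT2 2.1.0 and StringTie 1.3.1; genome build, annotation and strand setting were not given in the sources used here. Of the deposited estimated counts, 10.4% were not whole, and all were rounded. Groups follow the labels.

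Counts were filtered with filterByExpr (13928 genes), scaled by TMM and fitted with the edgeR 4.0.16 quasi-likelihood test (robust, 4 group means) in R 4.3.3, with 5 contrasts and Benjamini-Hochberg adjustment over all genes tested. The deposited FPKM values were used for levels between genes and, as log2(FPKM + pseudocount), in limma 3.58.1; DESeq2 1.42.0 was a further alternative. With 3 libraries against 3, an exact test of single values cannot go below p = 0.1, so none was used. Intervals are 95% intervals of the edgeR fit. The fit was tested on simulated counts. Library totals (14.5 M to 24.3 M) set the precision of low genes.

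The 9 genes, pathway lists, markers and motifs were chosen with earlier results of these data known, and support nothing by that choice. All 9 genes are named in each comparison; each list gives counts over all its tested genes and, by name, up to 4 genes with the smallest adjusted p below 0.05, of which examples are printed, plus the 4 Janus kinases; some results under this rule are not reported here. The listed symbol Mx2 has no entry under that name and was not analysed here. Promoter windows are RefSeq sequences of GRCm38.p6; exon overlaps come from GENCODE vM21. Same-numbered libraries of the 2 genotypes did not deviate together (r from -0.0339 to 0.0194).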

Additional observations from a re-analysis of the deposited data

Results flagged for a closer look

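The glycine response differed between genotypes, by the edgeR interaction test adjusted over all genes, for genes of 4 pathway lists, and for none of the 9 IRF and STAT genes (4 with an unadjusted p below 0.05, DESeq2 1). Interaction values are log2 differences, knockout response minus wild-type response, with SE. Among ISGF3 targets the interaction was 1.89 ± 0.294 for Ifit3 (adjusted p = 0.00703), 1.78 ± 0.317 for Ifit1 (0.014), 1.76 ± 0.371 for Ifit3b (0.0347) and 1.90 ± 0.405 for Ifit2 (0.0367). The count of 4 was 1 without knockout saline 3, 2 without wild-type saline 3, wild-type glycine 6, knockout saline 2 or knockout glycine 4 or 5, 7 without wild-type glycine 4, 2 under the replicate block, 1 in FPKM without a filter and 8 in DESeq2.

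Among interferon gamma targets, for the 4 with the smallest p, it was 3.58 ± 0.287 for Iigp1 (edgeR adjusted p = 2.28e-05), 3.23 ± 0.337 for Tgtp2 (0.000502), 3.57 ± 0.467 for Gbp6 (0.002) and 3.30 ± 0.509 for Tgtp1 (0.00643). Tgtp1 and Tgtp2 are near-identical copies, as are Ifit3 and Ifit3b, so how reads were shared between them is uncertain. Fgl2, on the STAT3 list, had 1.08 ± 0.243 (adjusted p = 0.0465); no STAT3 target was called higher in 10 of 12 fits with a library left out, in the replicate block or in the FPKM fits.

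The myeloid targets Cd68 and Ctss went the other way, with -1.33 ± 0.234 (edgeR adjusted p = 0.0133) and -1.07 ± 0.217 (0.0302). Of 13 macrophage markers 8 had a negative interaction past the threshold, and of 11 T and NK cell markers 1 had a positive one. The part of these cells in the interactions was not tested.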

How the results depend on the processing

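Irf5 and Irf8 between genotypes under saline and Irf7 between genotypes under glycine passed in all alternatives tried. The number of the 9 genes called moved as follows. Glycine in the wild type went from 0 to 1 in DESeq2 and 2 in each of 3 FPKM fits (Irf5 and Irf8). Glycine in the knockout went from 1 to a range of 0 to 1 with a library left out. Knockout against wild type under saline went from 4 to a range of 2 to 5 with a library left out, the 2 arising without knockout saline 2 or 3, and to 6 in FPKM with the filter at either pseudocount (Irf2 and Irf9 added). That count was 3 with the compared groups alone in the model and in FPKM without a filter. It was 5 in DESeq2 and with a filter of 50 counts. Between genotypes under glycine the count went from 1 to 2 (Irf9 added) with a filter of 50 counts, in DESeq2 and when the model held the compared groups alone, and to a range of 1 to 2 with a library left out. The interaction went from 0 to 1 without a filter, in DESeq2 and in FPKM with a pseudocount of 1 (Irf5). With a library left out it had a range of 0 to 1, the 1 being Irf7 without wild-type saline 1.

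Signs changed only for log2 differences that were not called. With FPKM (pseudocount 1, with or without a filter, then 0.1), glycine in the wild type gave 0.178 and 0.184 for Irf1, 0.263 and 0.277 for Irf2, 0.198 and 0.221 for Irf3, 0.306 and 0.324 for Irf9, and 0.279 and 0.355 for Stat2. In the knockout it gave 0.0237 and 0.0247 for Irf3, 0.192 and 0.196 for Irf8, and 0.28 and 0.287 for Irf9, which was 0.00123 with the 50-count filter. The interaction gave -0.174 and -0.196 for Irf3, -0.0254 and -0.0367 for Irf9, and -0.00391 for Stat2 at pseudocount 0.1. FPKM moved the median of all genes by 0.369 log2 for glycine in the wild type, 0.229 in the knockout, 0.202 between genotypes under saline and -0.115 for the interaction; higher genes made up 95.4%, 94.9%, 77.2%, 80.4% and 35.1% of calls against 71.5%, 82.2%, 53.5%, 58.5% and 24.4% from counts, over the 5 comparisons in the order wild-type glycine, knockout glycine, saline, glycine and interaction.

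With each library left out in turn, glycine in the wild type ranged from -0.631 to 0.0162 for Irf1, -0.252 to 0.019 for Irf2, -0.0943 to 0.677 for Irf7, -0.331 to 0.113 for Irf9, -0.314 to 0.0994 for Stat2 and -0.148 to 0.322 for Stat3. Glycine in the knockout ranged from -0.0817 to 0.0864 for Irf9 and -0.0445 to 0.318 for Stat2. Knockout against wild type ranged from -0.174 to 0.291 for Irf3 under saline, and under glycine from -0.0677 to 0.44 for Irf2, -0.0287 to 0.244 for Irf3 and -0.105 to 0.405 for Stat3. The interaction ranged from -0.151 to 0.345 for Irf3, -0.118 to 0.321 for Irf9 and -0.00544 to 0.45 for Stat2.

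The genes called over the whole table moved by over 1.5 times: 193 for glycine in the wild type was 526 in DESeq2, 1080, 1058 and 773 in the FPKM fits and 31 with only the compared groups; 157 in the knockout was 495, 703, 572, 530 and 336; 357 under glycine was 791 in DESeq2 and 572 in FPKM; and 156 for the interaction was 509 and 279. With a library left out these counts ranged from 80 to 259, 57 to 247, 139 to 412 and 60 to 338, and the 1573 under saline from 1016 to 1834. The replicate block called 4 of the 9 genes under saline, 1 under glycine and 0 in the interaction, as without it, and 1267, 219 and 47 genes in all. The labels name no pairing, and same-numbered libraries showed no sign of one, which does not exclude shared handling. No paired analysis was possible for glycine against saline, because those groups share no number. Leaving 1 library out leaves 2 in its group, assumed to vary like the rest. The causes of these moves were not tested. Depth limits the interferon ligands, most with no counts.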
